A study of Paralichthys olivaceus with 24 samples.

Results

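The earliest response to poly(I:C) at the cool temperature was measured in spleen from Paralichthys olivaceus, the Japanese flounder, a flatfish of coastal waters. The comparison set fish treated with poly(I:C) against fish treated with DEPC-treated water, both kept at 15 °C and sampled 3 h later, with 3 arrays in each. These 6 arrays are the ones titled for that treatment, temperature and time, out of 24 in the series. The other 18 arrays cover both treatments at 24 h, at 25 °C, or both, with 3 per group, and all 24 entered the fit that estimated the spread. Cool and warm below mean 15 °C and 25 °C. Each array read Cy3-labelled RNA with 14481 probes, of which 13377 were bright enough to test. The sources used here give no strain, age, dose or route of treatment, and whether different arrays held different fish is not stated. The p-values thus rest on the spread between arrays, part of which may be technical.

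Poly(I:C) is a synthetic double-stranded RNA that stands in for the RNA of a replicating virus. In bony fishes, as in mammals, double-stranded RNA is sensed by Toll-like receptor 3 in endosomes and by RIG-I-like receptors in the cytosol, and fishes also carry Toll-like receptor 22. These sensors switch on type I interferons and inflammatory cytokines, and interferon then induces a wide set of antiviral genes such as Mx. The spleen is a major site of this response in fishes, where macrophages and lymphocytes meet blood-borne particles, and it is rich in red blood cells. Flounder do not regulate their body temperature, so the temperature of the water sets the temperature at which these reactions run.

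The files name each probe by the contig code or database sequence it was designed on and pair none with a gene. Of 14478 target names 0 matched the gene table of the flounder assembly ASM2471397v2. The match used reference sequence names, gene identifiers and symbols, which are other kinds of name, so it could not show what the probes read. The database sequences were not looked up by name elsewhere. Results are therefore given for probes. The interferon, cytokine and cell marker genes were thus not picked out, and the label spleen was not checked against markers. By the rule for unnamed probes, each comparison names no more than 2 raised and 2 lowered probes, chosen among its called probes by the size of the log2 change. In bulk tissue a change in RNA per cell and a change in the share of cells that carry it cannot be told apart.

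Levels below are log2 signals relative to the 75th percentile of each array, which lay between 466.1 and 863.5 intensity units on the 6 arrays. Correlations across probes were 0.982 to 0.984 among the poly(I:C) arrays and 0.963 to 0.976 among the water arrays. The median SD over the 3 arrays was 0.16 log2 with poly(I:C) and 0.22 log2 with water. No probe was saturated on these arrays.

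By the probes called, the response to poly(I:C) after 3 h in the cool was narrow and mostly upward. A total of 299 probes (2.24% of those tested) were called at a limma adjusted p under 0.05, of which 227 rose (1.7% of the probes tested) and 72 fell (0.538%). The median log2 change was 1.49 among the raised probes and -0.72 among the lowered probes, against -0.05 over all tested probes. For 10 raised probes no water array, and for 16 lowered probes no poly(I:C) array, was well above background, so that their fitted change is not a measured size. With these at their bound, where each dim array counts at the larger of 2 signals, that of the probe itself and that of the dimmest probe still above background, the medians were 1.46 and -0.61. For 6 of the lowered probes the bound showed no fall, so their direction also rests on signals not well above background. Counted with these bounds, 159 raised probes changed at least 2-fold, 78 at least 4-fold, 41 at least 8-fold and 16 at least 16-fold. Of the lowered probes 12 changed at least 2-fold. In the fitted values these counts were 161, 82, 45 and 18 raised and 21 lowered probes, with 0 lowered probes at 4-fold. The weakest raised probe changed by 0.46 and the weakest lowered probe by -0.38 on the log2 scale.

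**Figure D1:**
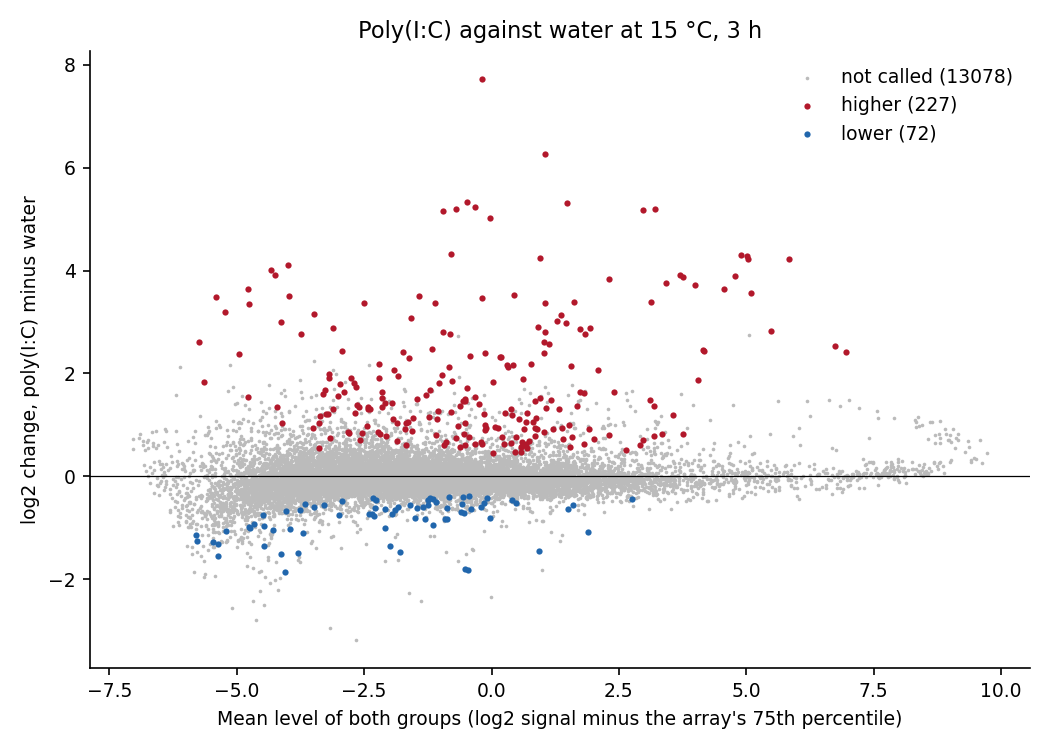
Log2 change with poly(I:C) after 3 h at 15 °C (vertical axis) against the mean log2 level of both groups (horizontal axis) for 13377 probes. The 227 raised probes (red) run from dim to bright levels and reach 7.73, while the 72 lowered probes (blue) end at -1.85.

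The 3 poly(I:C) arrays all lay above the 3 water arrays for 974 probes (7.28% of those tested) and all below for 1950 (14.6%). All 227 raised and all 72 lowered probes were among these. By these counts more probes lay lower than higher, the reverse of the calls. Of the tested probes, 316 were well above background on all water arrays and no poly(I:C) array, and 5 the other way round. Detection differed between the groups as a whole. On the poly(I:C) arrays 80.6% to 84.2% of probes were well above background, and on the water arrays 88.8% to 92.5%. Slide row moved with treatment, as given below, and its part in these counts was not tested. Of the probes that were not called, 198 were at least 2-fold higher and 120 at least 2-fold lower, down to a log2 change of -3.18.

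The largest rise was that of CUST_7726_PI426483990, a probe for contig JFC06560_1_code. Its log2 level was -3.83, -3.80 and -4.52 on the water arrays and 3.62, 3.89 and 3.53 on the poly(I:C) arrays. The probe was thus well below the 75th percentile on every water array and well above it on every poly(I:C) array. The SD was 0.41 log2 with water and 0.19 log2 with poly(I:C). The log2 change was 7.73 (SE 0.42, limma adjusted p = 3e-10). The next was CUST_7060_PI426483990, a probe for contig JFC19937_1_code. Its log2 level was -2.52, -2.69 and -1.03 on the water arrays and 3.75, 4.60 and 4.23 on the poly(I:C) arrays. Replicate 3 of water stood above the other water arrays and still far below the poly(I:C) arrays. The log2 change was 6.27 (SE 0.50, limma adjusted p = 1.1e-07).

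The largest falls were small beside these. Probe CUST_12466_PI426483990, for contig JFC23557_1_code, had log2 levels of 0.67, 0.22 and 0.48 on the water arrays and -1.07, -1.42 and -1.62 on the poly(I:C) arrays. The groups did not overlap, as the choice of named probes required, and the log2 change was -1.83 (SE 0.23, limma adjusted p = 3.3e-05). It was -1.82 within slide 1 and -1.96 with slide row as a block at 15 °C, as large as in all arrays, but with limma adjusted p-values of 0.059 and 0.054 that miss the threshold. Probe CUST_11286_PI426483990, for contig JFC07148_1_code, had log2 levels of -2.96, -3.18 and -3.24 on the water arrays and -5.21, -4.95 and -4.79 on the poly(I:C) arrays. It was well above background on all water arrays and on no poly(I:C) array, so its fall is a bound. It was at least 2.58-fold lower with poly(I:C) (limma adjusted p = 0.0074). With normexp background correction its log2 change was -0.45 and was not called.

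**Figure D2:**
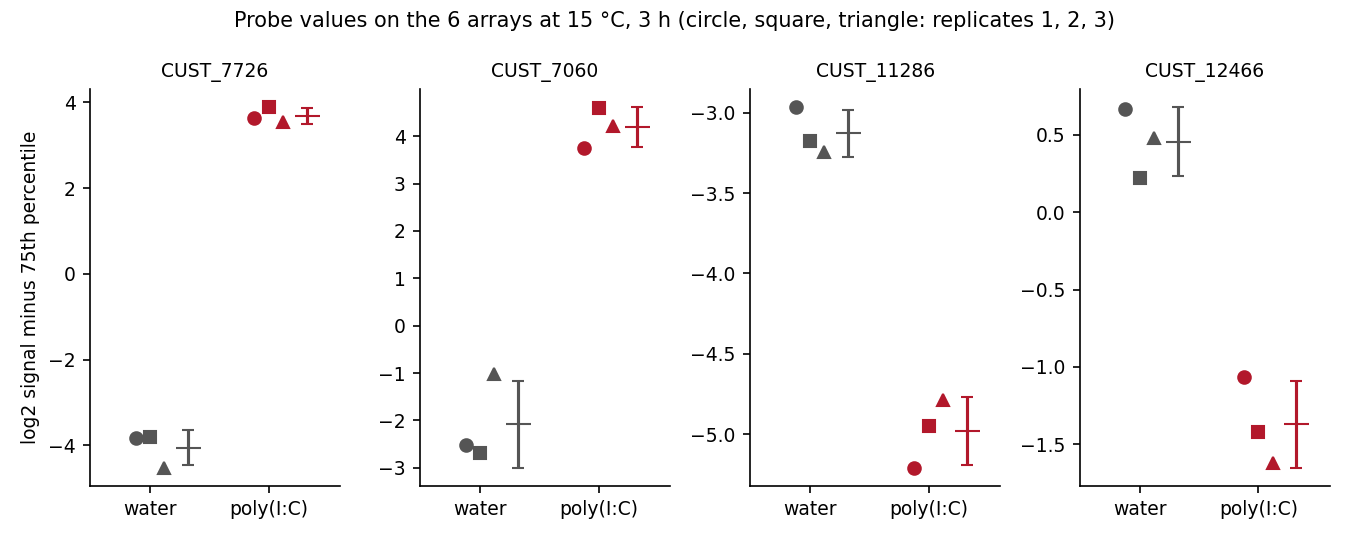
Log2 level of the 4 named probes on each of the 6 arrays at 15 °C and 3 h, with the mean and SD (n = 3) beside the points. For each probe the poly(I:C) arrays lie apart from the water arrays, as the choice of probes required. The vertical axes differ between panels.

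The raised probes ranged from dim to bright ones in water. When the tested probes were split into 4 equal bins by their level in water, the lowest bin held 47 raised probes (1.41%), the next ones 49 (1.47%) and 63 (1.88%), and the highest 68 (2.03%). The median log2 change of the raised probes was 1.84 in the lowest bin (1.65 with the 10 dim probes, all in this bin, at their bound) and 1.35 in the highest. With bins made from the mean level of all groups of the comparison instead, the raised probes numbered 27, 43, 57 and 100 from the lowest bin to the highest, since the rise itself then moves a probe upward. Of the 227 raised probes 210 were well above background on all 6 arrays, 7 on some of the water arrays, and 10 on none of them. Of the 72 lowered probes 52 were well above background on all 6 arrays, 16 on no poly(I:C) array and 4 on only some.

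The array holds several sets of probes, and calls were unevenly spread over them. Of 12935 tested probes in the main contig set 194 rose (1.5%) and 71 fell (0.549%). Of 334 tested probes for sequences taken from public databases 24 rose (7.19%) and 1 fell, and 14 of the raised ones changed at least 4-fold with dim probes at their bound. Of 91 tested probes in a further small contig set 9 rose (9.89%), 7 of them at least 4-fold, and 0 fell. The median log2 change over all probes of a set was -0.05 in the main contig set, 0.06 in the database set and 0.10 in the further contig set. How probes were chosen for each set is not given in the sources used here. Some probes may read the same transcript, so counts of probes are not counts of genes.

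The called probes were even among the replicates. They were called on these same arrays, which favours such evenness, so it is no separate check. The median level of the raised probes above the mean of the water group was 1.34, 1.50 and 1.54 log2 on the 3 poly(I:C) arrays. For the lowered probes it was -0.74, -0.71 and -0.67 log2. On the water arrays these medians lay between -0.07 and 0.05 for raised and between -0.03 and 0.10 for lowered probes.

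The arrays of the comparison lay on 2 of the 3 slides. All poly(I:C) arrays and water replicates 1 and 2 were on slide 1, and water replicate 3 was on slide 2. Against the 2 water arrays of the same slide the raised probes had a median log2 change of 1.41 and the lowered probes of -0.69. Against the water array of the other slide these medians were 1.70 and -0.81. Since the groups of all 299 called probes do not overlap, only these sizes, and not the directions, could differ. Of the 226 raised probes measured on the other water array 139 had the larger change against it, and of the 72 lowered probes 45 did. With the 5 arrays of the comparison on slide 1 fitted alone, 90 probes were called higher and 8 lower, and 87 of the raised and 4 of the lowered probes were among them. With the slide as a fixed block in the fit of all arrays, 176 were called higher and 40 lower. Among them were 165 of the raised and 27 of the 72 lowered probes.

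**Figure D3:**
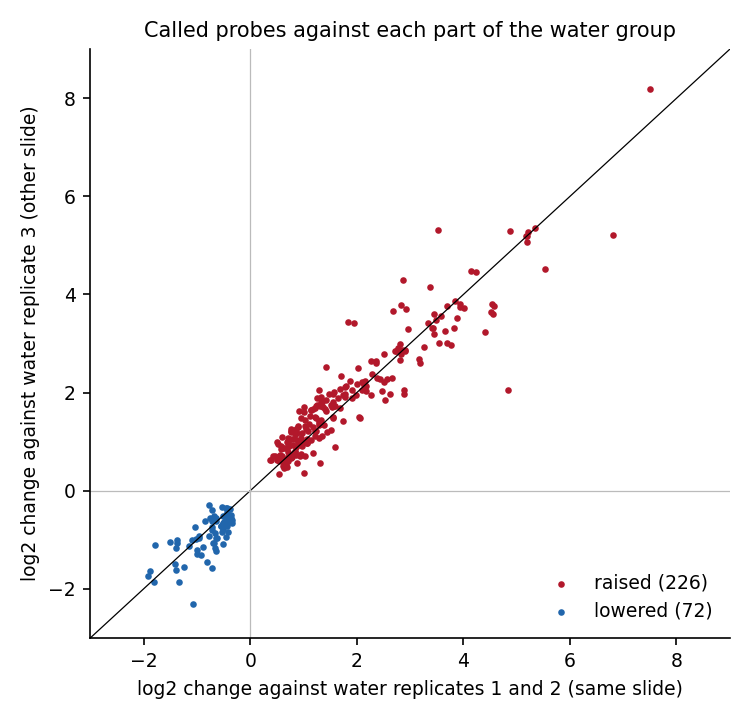
Log2 change of called probes against the mean of water replicates 1 and 2, which share the slide of the poly(I:C) arrays (horizontal axis), and against water replicate 3 on another slide (vertical axis). Each point is a probe, and the diagonal marks equal values. Of 226 raised and 72 lowered probes plotted, 139 and 45 have the larger change against replicate 3, and the signs are fixed because the groups do not overlap.

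The row of the slide also moved with treatment. The 3 poly(I:C) arrays lay in row 2 of the shared slide and its 2 water arrays in row 1. The water array on slide 2 lay in row 2, with 88.8% of probes well above background. The other row 2 arrays of slide 2 had 78.4% to 83.9%, and its row 1 arrays 87.7% to 91.1%. On slide 3 the values were 85.5% to 88.4% in row 2 and 85.7% to 95.0% in row 1. On the 4 arrays of row 1 of slide 1 89.0% to 94.2% of probes were well above background, and on the 4 arrays of its row 2 80.6% to 84.2%. The 24 h poly(I:C) arrays at 15 °C fell the same way, with 94.2% and 91.2% in row 1 and 83.6% in row 2. In that group the median of the row 2 array minus the row 1 arrays was 0.02 log2 for the 72 lowered probes. It was 0.03 for the 227 raised probes and -0.05 over all tested probes. Of the lowered probes 32, and of the raised probes 100, were lower in row 2. The row 2 side is a single array, so these values are no test of the row. The 12 arrays at 15 °C were also fitted with slide row as a block, an alternative chosen after seeing the data. This fit is no test of the row either. Only the 3 h water and 24 h poly(I:C) groups span both rows, each with a single array in row 2. That water array is also the one on slide 2. There 58 probes were called higher and 8 lower, among them 57 of the 227 raised and 3 of the 72 lowered probes. In that fit all 227 raised probes had a median log2 change of 1.51 and all 72 lowered probes of -0.63. The median SE of all probes was 0.31, against 0.20 in the fit of all 24 arrays. The 2 fits differ in the number of arrays as well as in the row term, so these differences cannot be assigned to the row.

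The number of lowered calls varied with the fit. A limma fit of the 6 arrays alone called 14 of the 72 lowered probes again, with changes of the same size, and 131 of the 227 raised ones. Normexp called 5 and 107 again, with medians of -0.38 and 1.09. Median scaling called 70 and 214 again, and a fit of the deposited values 72 and 226. Without poly(I:C) replicate 1, 2 or 3 all lowered calls numbered 46, 37 and 49, and all raised calls 219, 176 and 181. Among them were 33, 31 and 32 of the 72 lowered probes and 202, 170 and 176 of the 227 raised ones. Without water replicate 1, 2 or 3 all lowered calls numbered 90, 48 and 41, and all raised calls 339, 190 and 178. Among them were 50, 37 and 31 of the 72 lowered probes and 207, 184 and 167 of the 227 raised ones.

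Most of the raised probes were also called higher with poly(I:C) in cool fish at 24 h and in warm fish at 3 h. Each setting uses other arrays, but 1 estimate of the spread per probe serves them all. A probe with a small spread is thus favoured in every setting. In cool fish at 24 h all poly(I:C) arrays were on slide 1 and all water arrays on slide 2, and in warm fish at 3 h they were on slides 2 and 3, so that within these settings slide and treatment cannot be told apart. In warm fish at 24 h the water arrays and 2 of the 3 poly(I:C) arrays were on slide 3. In warm fish at 3 h 183 of the 227 were called higher (80.6%, against 17.7% of all tested probes) and 7 lower (3.08%, against 29.3%), with a median log2 change of 1.70. In cool fish at 24 h 143 were called higher (63%, against 18.9% of all tested probes) and 12 lower (5.29%, against 18.8%), with a median of 1.05. In warm fish at 24 h 39 were called higher (17.2%, against 7.5%) and 22 lower (9.69%, against 10.6%), with a median of -0.02. The shared probes made up 7.73%, 5.64% and 3.89% of the longer lists of raised probes in these settings.

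The named probes differed in this respect. CUST_7726_PI426483990 was at least 12.2-fold higher in cool fish at 24 h, where no water array was well above background, and its log2 change was 4.96 in warm fish at 3 h and 0.09 (limma adjusted p = 0.9) in warm fish at 24 h. CUST_7060_PI426483990 rose in each of them, with log2 changes of 8.59, 8.12 and 4.30. CUST_12466_PI426483990 fell by 0.66 in cool fish at 24 h and by 1.57 in warm fish at 3 h on the log2 scale, and its change of -0.60 in warm fish at 24 h was not called. CUST_11286_PI426483990 fell by 2.70 in cool fish at 24 h and rose by 1.55 in warm fish at 3 h, both called.

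The raised probes followed several courses. The most common, with 94 probes (41.4%, against 7.58% of all tested probes), was a rise that was also called in cool fish at 24 h and in warm fish at 3 h but not in warm fish at 24 h. Their median log2 change was 1.37 after 3 h in the cool, 1.66 after 24 h there and 2.43 after 3 h in the warm. A further 36 probes (15.9%) rose in all 4 settings, where 3.01% of all tested probes were called higher in the other 3, with medians of 2.43 and 4.50 in cool fish at 3 h and 24 h, and of 4.50 and 1.28 in warm fish at these times. Another 33 (14.5%, against 5.17%) were called higher at both temperatures at 3 h and were not called at either temperature at 24 h, with medians of 1.46 at 15 °C and 1.23 at 25 °C. In 36 probes (15.9%, against 71.7% of all tested probes) no rise was called in any other setting, and 14 of these (38.9%, against 50.9% of all such probes) were called lower in at least 1 of them. These 36 had a median log2 change of 1.33. With 4 dim probes at their bound, 8 of them changed at least 4-fold and 5 at least 16-fold. The largest of their log2 changes were 5.34, 5.32, 5.23 and 5.16. Some of these probes may read the same transcript, so the counts need not be separate responses. A missing call elsewhere does not show that a probe did not respond there.

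The lowered probes were shared less evenly. In warm fish at 3 h 38 of the 72 were called lower (52.8%, against 29.3% of all tested probes) and 14 higher (19.4%, against 17.7%). In cool fish at 24 h 14 were called lower (19.4%, against 18.8%) and 23 higher (31.9%, against 18.9%). In warm fish at 24 h 8 were called lower (11.1%, against 10.6%) and 19 higher (26.4%, against 7.5%). Their shares of lower calls at 24 h were thus near those of all probes at both temperatures.

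**Figure D4:**
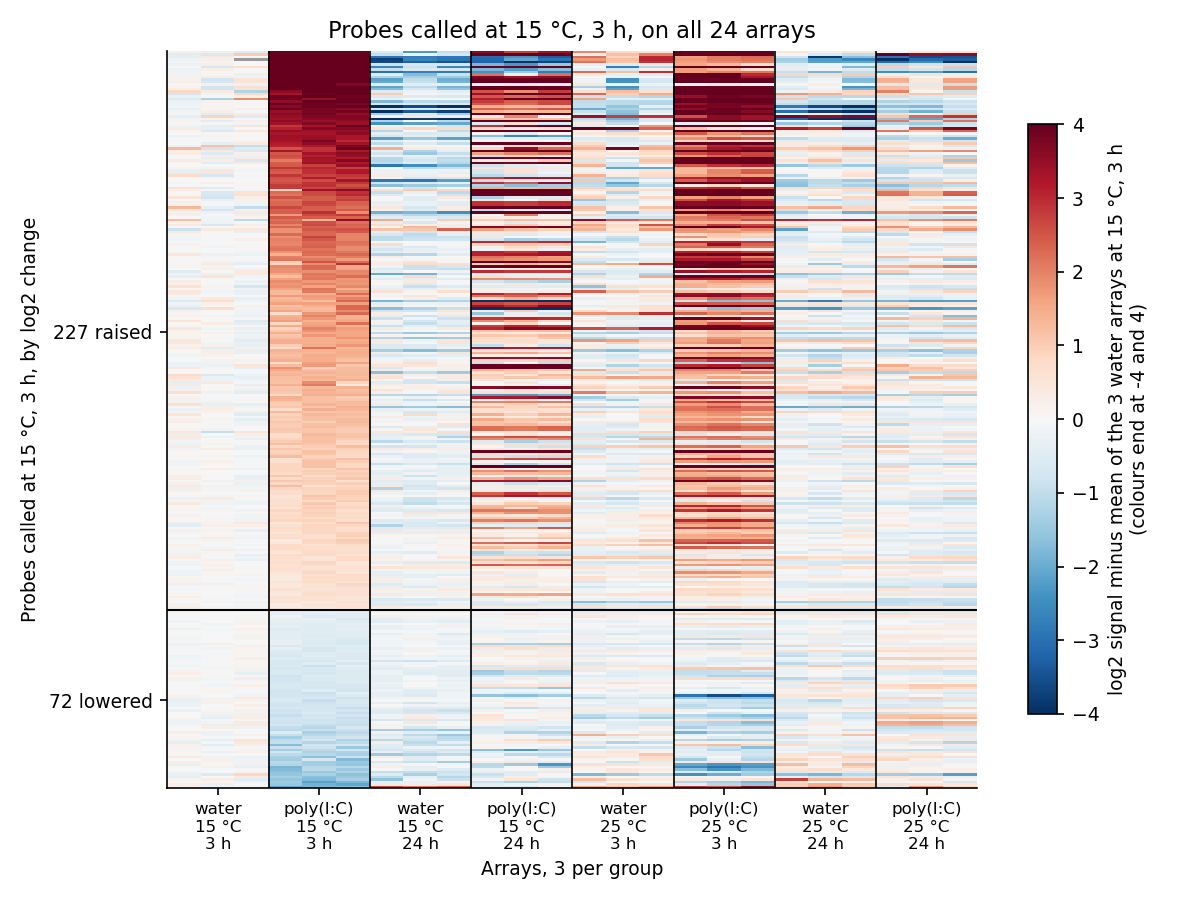
Log2 signal of the 299 called probes (rows, ordered by log2 change) on all 24 arrays (columns, 3 per group), relative to the mean of the 3 water arrays at 15 °C and 3 h. Red is higher and blue lower. The raised probes are red in poly(I:C) fish at 15 °C and 3 h by construction, many are red in cool fish at 24 h and in warm fish at 3 h, and few in warm fish at 24 h.

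The levels of the called probes also varied among the water groups. Relative to the 3 h water fish at 15 °C, the median of the raised probes was -0.31 log2 in the cool water group of 24 h, -0.01 in the warm one of 3 h and -0.17 in the warm one of 24 h. Over all tested probes the first and last of these medians were -0.02 and 0.04. The lowered probes were at -0.25, -0.14 and -0.13. They were called partly for high values on the 3 h water arrays at 15 °C, a choice that by itself favours values below 0 here.

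Whether the response at 3 h differed from that at 24 h in the cool was tested by an interaction in the same fit, which called 3652 probes (27.3%), and 3041 with the slide as a block. The probes with the most negative values rose early and were below water later. The signal of CUST_7933_PI426483990 (contig JFC02466_1_code) was 0.14, 0.61 and 0.37 in water at 3 h and 5.83, 5.67 and 5.18 with poly(I:C). At 24 h it was -0.54, -0.23 and -0.33 in water and -1.45, -1.87 and -1.32 with poly(I:C). Groups did not overlap at either time, and the response turned from 5.19 (SE 0.24) to -1.18 (SE 0.24), an interaction of -6.37 (SE 0.34, limma adjusted p = 7.3e-10). CUST_294_PI426483993, a probe for a database sequence, had log2 changes of 5.20 at 3 h and -1.13 at 24 h and an interaction of -6.33 (SE 0.35). On all 24 arrays the level of CUST_7933_PI426483990 minus that of CUST_294_PI426483993 lay between -0.43 and -0.10 log2. The 2 probes may thus read the same transcript and are not separate examples.

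The most positive values of this interaction belonged to probes with a late rise. CUST_6259_PI426483990 (contig JFC12526_1_code) had log2 levels of 1.42, 2.44 and 1.84 in water at 3 h and of -0.79, -0.24 and 1.23 with poly(I:C), a change of -1.83 (SE 0.56) that was not called (limma adjusted p = 0.1). At 24 h the levels were -0.08, 0.08 and -0.24 in water and 3.25, 5.28 and 4.88 with poly(I:C). The groups lay apart at both times, in opposite orders, and the interaction was 6.38 (SE 0.79, limma adjusted p = 7e-06). CUST_12677_PI426483990 (contig JFC08711_1_code) was well above background on 0 poly(I:C) arrays and 1 water array at 3 h, so its interaction of 6.11 (SE 1.83, limma adjusted p = 0.018) is not fully measured. It was 2.73 with normexp and 9.84 with the slide as a block, both called. Its call was lost when the fit held just the compared groups, and without replicate 1 or replicate 3 of water at 24 h (log2 values of 5.22 and 5.28).

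Whether the response at 3 h differed between 25 °C and 15 °C was tested in the same way, and 4042 probes were called (30.2%). Of these 1750 were more positive (13.1%) and 2292 more negative (17.1%) at 25 °C, a balance that turned to 2786 and 1279 with median scaling, where the median interaction of all probes moved from -0.12 to 0.14 log2. With the slide as a block 1155 were called. CUST_7260_PI426483990 (contig JFC24307_1_code) rose in the cool fish. Its log2 level was -3.06, -2.79 and -2.98 in water at 15 °C and 1.89, 2.23 and 2.74 with poly(I:C). At 25 °C it was -0.81, -1.80 and -0.05 in water and -1.30, -1.04 and -0.94 with poly(I:C). The groups were far apart at 15 °C and overlapped at 25 °C. The log2 changes were 5.23 (SE 0.39) and -0.21 (SE 0.39), with an interaction of -5.44 (SE 0.55, limma adjusted p = 1.1e-06). CUST_3444_PI426483990 (contig JFC24335_1_code) was at least 2.93-fold higher with poly(I:C) at 15 °C, being well above background on 2 of 3 poly(I:C) arrays and on 0 water arrays. At 25 °C it was at least 3.56-fold lower, being well above background on 2 of 3 water arrays and on 0 poly(I:C) arrays, and its interaction of -6.87 (SE 1.05) was not called with the slide as a block (-3.41) or with normexp (-2.03).

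The most positive values here belonged to probes that were well above background on every poly(I:C) array of the warm fish at 3 h. In cool fish at 3 h they reached that mark on 0 and 2 of the 3 poly(I:C) arrays. CUST_11992_PI426483990 (contig JFC28148_1_code) stayed below that mark on all 6 arrays at 15 °C and 3 h. In warm fish its log2 level with poly(I:C) was 0.55, 1.94 and 2.91, at least 80.0-fold above water. CUST_377_PI426483993, a probe for a database sequence, had log2 levels of -6.20, -3.65 and -3.45 with poly(I:C) at 15 °C, where 2 of these 3 arrays and 0 water arrays were well above background, at least 1.71-fold above water (limma adjusted p = 0.01), and of 2.54, 2.08 and 1.19 at 25 °C, at least 87.8-fold above water. Their interactions were 7.16 (SE 0.83, limma adjusted p = 5.2e-06) and 5.77 (SE 0.78, limma adjusted p = 2.3e-05), sizes that rest on signals near background. With normexp the former was 4.32, still called. In cool fish at 24 h both probes were well above background on all 3 poly(I:C) arrays and 0 water arrays. They were at least 22.0-fold and 19.0-fold above water there.

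**Figure D5:**
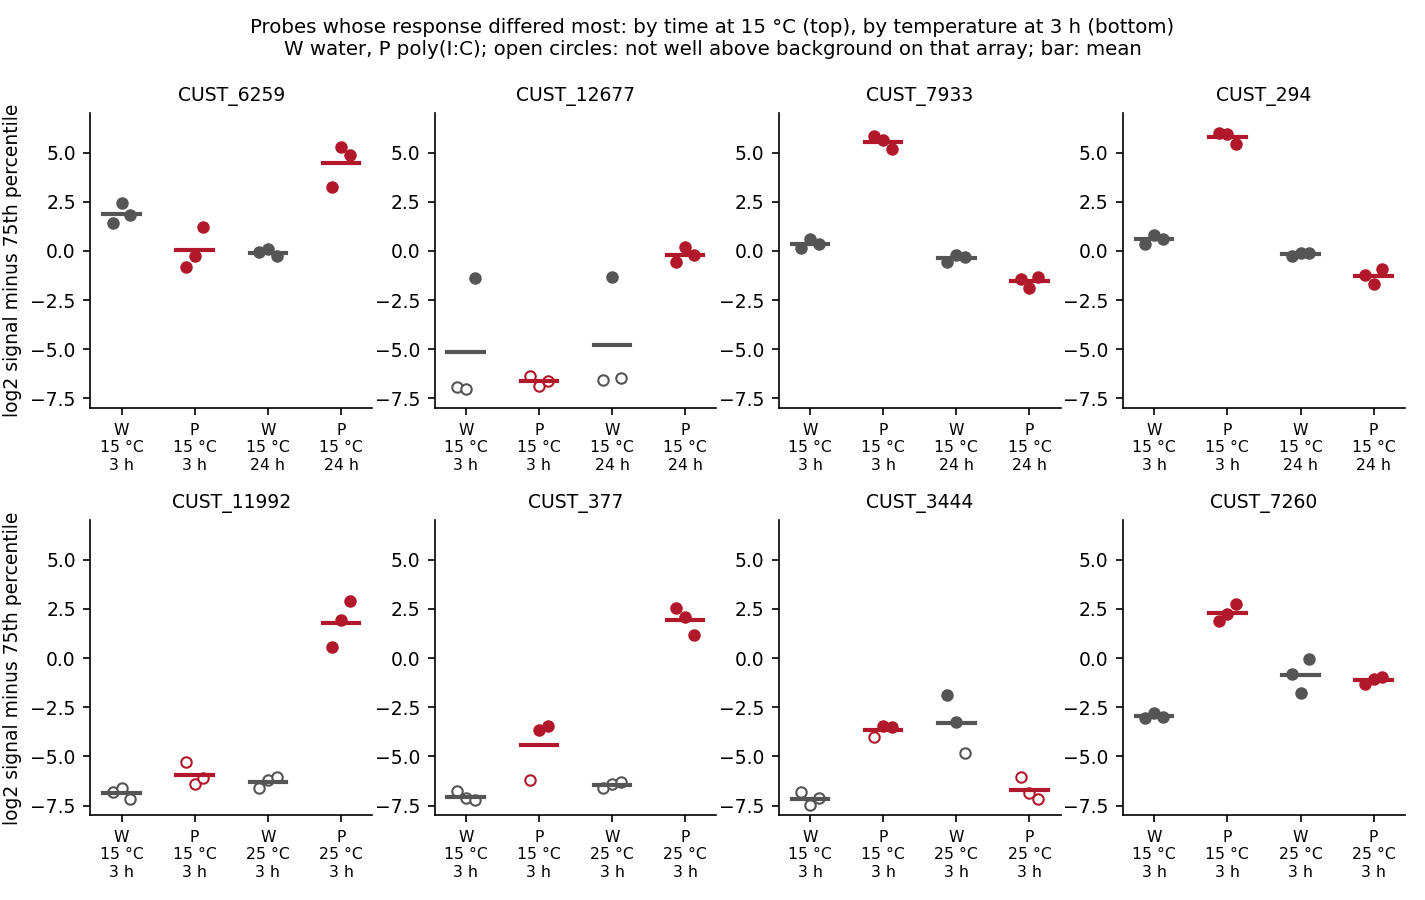
Log2 level on each array (points) and group mean (bars) for the 4 probes named for the difference between 3 h and 24 h at 15 °C (top) and the 4 named for the difference between 25 °C and 15 °C at 3 h (bottom). Grey is water, red poly(I:C), and open points were not well above background. CUST_7933 and CUST_294 are high with poly(I:C) at 3 h and low at 24 h, and CUST_7260 is raised at 15 °C and not at 25 °C.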

How the data were processed

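The authors deposited 1 Agilent Feature Extraction file per array (version 10.7.3.1 per the file headers, 9.5.3.1 per the submitters' processing notes), with intensity values that per the file headers are background-subtracted, with no normalisation across arrays. They also deposited a table of log2 values with the method not given in the sources used here. After removal of a constant per probe 100% of its values lay within 0.02 log2 of the scaling used here, and each probe's centring stays unknown. The 0 or 1 marks for spots well above background or outlying are other values of the deposited files.

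Control spots and outlier spots were left out, log2 processed signals were averaged per probe, and each array's 75th percentile was taken off. A probe was tested if 1 or more of the 8 groups had it well above background on its 3 arrays (13377, with 1104 left out). Missing values numbered 10 on the 6 arrays, where limma dropped the array for that probe, and 1 called probe was affected. The 24 arrays entered 1 model with a mean per group (lmFit and eBayes of limma 3.58.1, R 4.3.3), with 16 residual and 2.65 prior degrees of freedom. Calls are at a Benjamini-Hochberg adjusted p under 0.05, two-sided. Exact permutation of 3 against 3 arrays could not reach that level. Named probes are the called probes with the largest changes, for the main comparison with groups that do not overlap. Comparisons, lists and members were chosen with earlier results of these data known. Gene lists were not tested, as no probe has a gene name. The number of arrays limits the precision. The fit was tested on simulated data. Slide and row come from the array codes in the file headers. Alternatives were quantile and median scaling, normexp with offset 50, the deposited table, other filters, priors, thresholds and weights, compared groups only, slide, row and replicate number as blocks, and leaving out arrays.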

Additional observations from a re-analysis of the deposited data

Results flagged for a closer look

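At 15 °C, 3652 probes were called for a difference in fitted response between 3 h and 24 h, by a test of the difference itself. At 3 h, 4042 were called in the same way between 25 °C and 15 °C. In cool fish at 24 h and in warm fish at 3 h, poly(I:C) and water arrays lay on different slides. Slide and treatment thus cannot be told apart within either setting. With a fixed term for slide in the fit 3041 probes were called for time, of which 2674 were also called without it. For temperature 1155 were called, of which 1113 were also called without it. The share of these calls due to slide was not tested. The probes named for time at 15 °C had interactions of 6.38 (CUST_6259_PI426483990), 6.11 (CUST_12677_PI426483990), -6.37 (CUST_7933_PI426483990) and -6.33 (CUST_294_PI426483993). Those named for temperature at 3 h had interactions of 7.16 (CUST_11992_PI426483990), 5.77 (CUST_377_PI426483993), -6.87 (CUST_3444_PI426483990) and -5.44 (CUST_7260_PI426483990). For CUST_12677_PI426483990 and the first 3 of these the values are fitted differences that rest on groups not well above background, so they are not measured sizes. Groups of 3 arrays are too small for a test of single outlying arrays, so none was made.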

How the results depend on the processing

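The count of 299 probes called at 15 °C and 3 h stayed within 1.5 times under quantile scaling (322), median scaling (313), the deposited table (298), no filter (291), a strict filter (295), weights by group (373), a trended robust prior (318) and the slide as a fixed (216) or random (297) block. A similar count need not hold the same probes. Of the 299 probes 278 were called again under quantile scaling and 192 with the slide as a fixed block. The count was 112 with normexp, 158 in the compared groups alone and 98 within slide 1. It was 190 at an adjusted p under 0.01 and 182 with at least a 2-fold change. Among alternatives chosen after seeing the data it was 159 over the 8 arrays of slide 1, 66 with slide row as a block at 15 °C and 127 with slide and row as blocks. Normexp used median signals, as the version on mean signals was not run. Without single arrays the count ran from 213 to 429, the highest without replicate 1 of water. With the replicate number as a block 196 were called (165 higher and 31 lower). Same-numbered arrays had deviations that correlated at 0.04, 0.19 and -0.15. With so few arrays per group these values cannot show whether the numbers pair the samples.

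For the interaction with time the count of 3652 became 1224 with normexp, 2228 at an adjusted p under 0.01, 2159 with at least 2-fold, and 3141 to 3561 without single arrays. For that with temperature 4042 became 1200, 2328, 2266 and 3396 to 4099, and also 1155 with the slide as a block and 1057 with slide and row. With the replicate block the 2 counts were 3051 and 3340. No named probe changed direction. CUST_7726_PI426483990 ranged from 6.09 to 8.02 and CUST_7060_PI426483990 from 5.61 to 6.80 over 24 alternatives and stayed called. CUST_12466_PI426483990 lost its call within slide 1 (-1.82, adjusted p = 0.059 by limma) and with slide row as a block (-1.96, 0.054), against a log2 change of -1.83 in all arrays. The causes of these changes were not tested.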
